A study of Mus musculus with 28 samples.

Results

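Potassium channel genes were described in single-cell RNA-seq counts from 28 cells of the mouse brain. Members were chosen by symbol: names that begin with Kcn, go on with letters and then a number, without Kcnj10 and without antisense or predicted transcripts named after a channel. This gave 92 of the 23453 genes of the exonic count table, and 88 of them were also listed among the 20422 genes of the intronic table. Kcna3, Kcna5, Kcne1l and Kcnf1 were not. The symbols cover more than pores: 16 of the 92 members were auxiliary subunits (Kcnab, Kcne, Kcnip and Kcnmb), and 10 were the silent Kv subunits (Kcnf, Kcng, Kcns and Kcnv), which modify other channels.

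The sample labels list 8 astrocytes and 12 neurons, which came as primary cultures from the cortex of C57/BL6 mice and were picked by pipette, and 8 interneurons, taken by patch clamp pipette out of acute cortical slices of C57/BL6/N mice. No treatment was given as a variable, and the labels name no animal or culture for a cell. The growth text in the labels of the cultured cells describes fixed brain sections of a male mouse aged 3 months, whereas the study's methods speak of cultures from embryonic brain. Cultured cells and slice cells also had different library kits and sequencers per the labels, so the cell source and the preparation cannot be told apart.

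Each column of the tables has a code, 20 beginning with BRP and 8 with F, and 0 of the 28 codes were found in a sample label. No column was therefore given a cell type, no test between columns was made, and values are given by code. The columns were read in 3 blocks that came with the choice of the genes. The first BRP block holds BRP564 and BRP566 to BRP572 (8 columns), the second BRP block the other 12 BRP columns, and the F block the 8 F columns. How the BRP codes were divided was not given and may rest on expression, so differences between the BRP blocks are a description only.

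Potassium channels let K+ leave or enter a cell and so set the resting potential, end the action potential and pace repetitive firing. Voltage-gated (Kv) channels are tetramers of pore subunits. Kv1, Kv2, Kv3, Kv4 and Kv7 subunits differ in the voltage at which they open and in how fast they close, and Kv3 channels are known for the brief spikes of fast-firing cortical interneurons. Inward rectifiers and two-pore-domain channels carry current near rest, BK and SK channels open with calcium, and astrocytes are known for a large resting potassium conductance.

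Promoter sequences are shown for 3 members chosen by their levels in the blocks. Kcnc1 and Kcnc2 encode Kv3.1 and Kv3.2 and held the highest median levels per kilobase in the F block. Their F ranges overlapped the BRP range. Kcne1l (Kcne5), an X-linked auxiliary subunit, was the 1 member whose whole range in the first BRP block lay above that in the second. Of all genes 2.24% met this. The sequences are those of RefSeq on GRCm38.p6, 5′ to 3′, from 250 bases before to 50 bases after the annotated start. Capitals mark GGGCGG or its reverse complement CCGCCC, the core of a GC box, searched on both strands. Kcnc1 lies at chr7:46396218-46396517 on the plus strand, Kcnc2 at chr10:112269767-112270066 on the plus strand (the most upstream of 4 starts) and Kcne1l at chrX:142306149-142306448 on the minus strand.
Kcnc1: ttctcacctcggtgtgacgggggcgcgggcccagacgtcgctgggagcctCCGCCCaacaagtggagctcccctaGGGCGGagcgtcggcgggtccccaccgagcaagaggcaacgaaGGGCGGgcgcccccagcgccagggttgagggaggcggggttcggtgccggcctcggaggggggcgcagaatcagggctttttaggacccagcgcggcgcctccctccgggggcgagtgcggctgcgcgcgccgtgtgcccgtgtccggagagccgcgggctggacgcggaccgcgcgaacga
Kcnc2: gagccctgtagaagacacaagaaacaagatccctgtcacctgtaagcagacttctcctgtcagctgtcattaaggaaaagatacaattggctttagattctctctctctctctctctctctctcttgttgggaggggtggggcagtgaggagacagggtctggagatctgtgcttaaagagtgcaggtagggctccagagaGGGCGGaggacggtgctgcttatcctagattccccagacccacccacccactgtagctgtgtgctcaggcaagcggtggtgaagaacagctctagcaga
Kcne1l: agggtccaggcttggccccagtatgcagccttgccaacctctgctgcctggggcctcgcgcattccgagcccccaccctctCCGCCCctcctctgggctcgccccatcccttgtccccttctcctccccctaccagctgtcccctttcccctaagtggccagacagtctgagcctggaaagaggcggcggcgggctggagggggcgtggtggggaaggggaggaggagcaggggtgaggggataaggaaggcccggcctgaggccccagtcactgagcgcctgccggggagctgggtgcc
The window of Kcnc1 held 3 GC boxes and 41 CG dinucleotides, that of Kcnc2 1 box and 3 CG dinucleotides, and that of Kcne1l 1 box and 12 CG dinucleotides. The Kcnc2 window is that of 1 of 4 starts and lies upstream of the gene position given below. The windows of its other starts are not described. Of all 32851 promoters of the same length 35.7% held the motif, with a median of 7 CG dinucleotides. Among 92 promoters of 67 members, 44 (47.8%) held it and the median was 9 CG dinucleotides. A match of letters is a description of the window and not a bound site.

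Depth differed between blocks. Exonic totals ran from 12969692 to 26770944 counts in the BRP columns and from 838343 (F16) to 14831505 (F1) in the F columns, so levels are given as CPM, the counts scaled to a common exonic total of 1000000 per column. A count of 0 allows up to 3 counts, which is 0.112 to 0.231 CPM in a BRP column and 0.202 to 3.58 CPM in an F column. Intervals and such limits cover counting error only. Introns took 5.67% to 38.8% of the exonic and intronic counts of a BRP column and 5.31% to 63.0% of those of an F column. Summed marker levels differed between the blocks, and the part of the marker genes in the results was not tested. The 8 astrocyte markers, all counted in the first BRP block, summed to 1873 to 6835 CPM there, 179 to 2463 CPM in the second and 0 to 4354 CPM in the F block, where S100b was at 0. Slc1a2 of this list went the other way between the BRP blocks, with medians of 192 CPM in the first and 804 CPM in the second. It reached 2459 CPM in the second block and 4350 CPM in the F block, near the highest sums there. Each other gene of the list had its highest median in the first block. The 6 neuron markers summed to 299 to 801, 4737 to 8469 and 1608 to 16746 CPM. The 8 interneuron markers summed to 1.62 to 190.003, 0.538 to 3109.7 and 565 to 11886 CPM, with Vip and Lhx6 at 0 in the first BRP block. Aqp4, an astrocyte water channel, lay at 652 to 2062 CPM in the first BRP block, and Snap25, a neuronal release protein, at 607 to 3699 CPM in the second. Gad1, which makes GABA, had a median of 2754 CPM over the F columns, but F11 and F12 held 18.9 and 0.739 CPM. Of the interneuron list, Slc32a1, Gad2, Dlx1 and Lhx6 had F medians of 531, 10.2, 0.998 and 0.524 CPM, and Pvalb, Sst and Vip 0. Pvalb was counted in 3 of 8 F columns, up to 213 CPM, and in 7 of 8 columns of the first BRP block, up to 182 CPM. BRP528 and BRP529 held markers of both kinds, with Aqp4 at 142 to 418 CPM, Snap25 at 607 to 2015 CPM and Gad1 at 1136 CPM in BRP528. F16 held 2093 CPM of the microglial receptor gene Csf1r.

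F11 and F12 were far closer to each other than any other pair. Their log2(CPM + 1) over all genes had a Pearson r of 0.954, against 0.190 to 0.489 for the other 27 pairs of F columns, and their chi-square per degree of freedom was 17.6 against 1261 to 4011. Among the 92 members r was 0.970. The labels do not say whether they share a cell, and they differed by more than counting noise. Values over the F block are therefore also given with the pair counted once, as its mean (7 values).

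**Figure D1:**
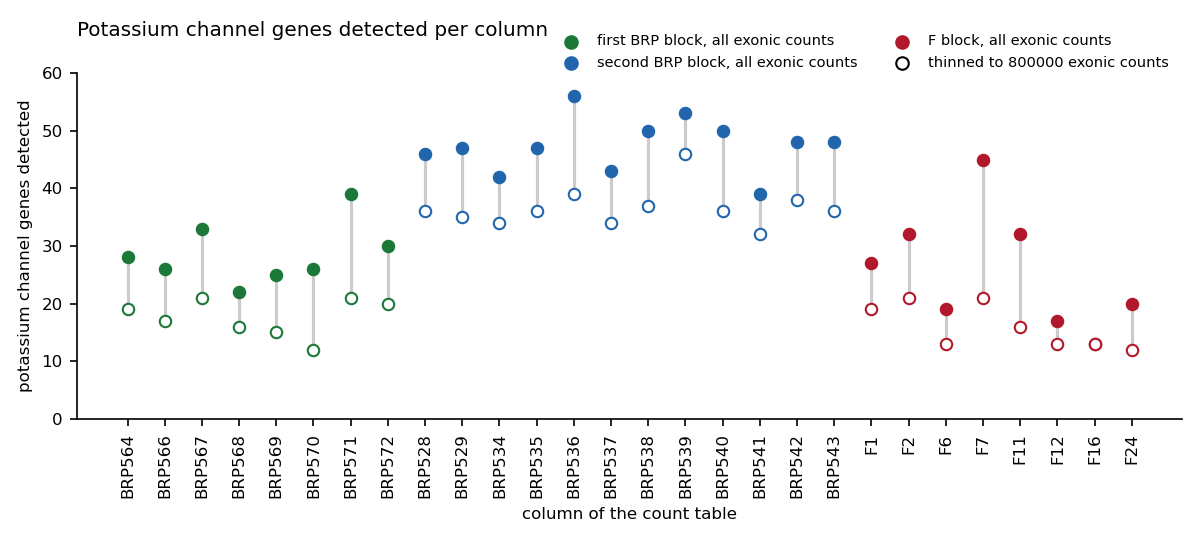
Number of the 92 potassium channel genes with at least 1 exonic count (y axis) in each of the 28 columns (x axis); filled points use all counts, open points the column thinned to 800000 exonic counts. The second BRP block stayed highest after thinning, at 32 to 46 genes against 12 to 21 in both other blocks; in F16 the points coincide at 13.

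By exonic counts, the second BRP block had the highest median number of potassium channel genes detected per column. With intronic counts added, the highest column was F7 at 76 members, against at most 71 in the second block. With at least 1 exonic count as the limit, 22 to 39 members were detected per column of the first BRP block (median 27), 39 to 56 in the second (median 47.5) and 13 to 45 in the F block (median 23.5, or 24.5 with F11 and F12 counted once). The plot of detected genes per column gives both depths. After each column was thinned to 800000 counts, the medians were 18, 36 and 14.5, and no column of the first BRP block or the F block reached the lowest value of the second. Over all genes detected at that depth the members made up a median of 0.177%, 0.395% and 0.509% of a column in the 3 blocks. By this share the F block was highest.

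In all, 86 of the 92 members had an exonic count somewhere, against 83.2% of all genes of the table, and 76 of the 88 an intronic count, against 84.5%. Kcna10, Kcne1, Kcne3, Kcnk16, Kcnk9 and Kcnmb3 had none in exons. A count in at least 4 of the 8 columns of the first BRP block was found for 30 members (51.8% of all genes), in at least 6 of the 12 columns of the second for 48 (47.7% of all genes) and in at least 4 of the 8 F columns for 22 (19.1% of all genes). With F11 and F12 counted once the last number was 20, against 17.2% of all genes. Thus 32.6% of the members but 51.8% of all genes were detected that often in the first BRP block. After thinning the numbers were 16, 36 and 13. These were 17.4%, 39.1% and 14.1% of the members, against 45.0%, 39.4% and 9.82% of all genes. In the second block the members were thus near the share over all genes. Of the members, Kcna2 and Kcnc2 had a count in all 8 F columns, against 1.13% of all genes.

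**Figure D2:**
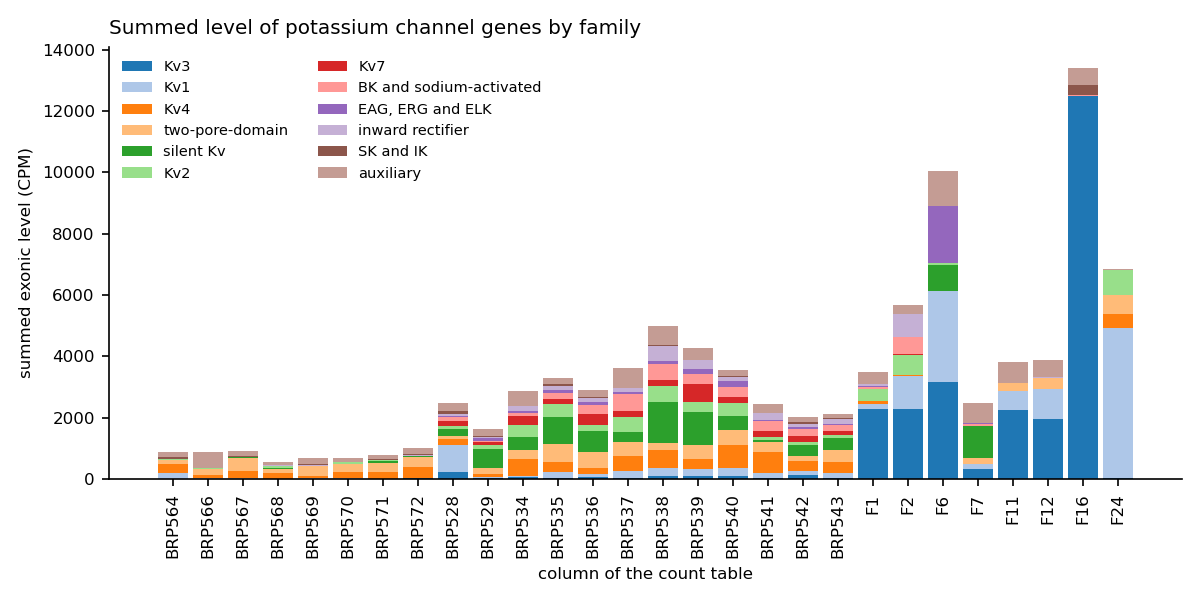
Summed exonic level of the 92 potassium channel genes in CPM (y axis, stacked by family) in each column (x axis). The first BRP block lies at 534 to 1016 CPM, the second at 1630 to 4984 CPM and the F block at 2461 to 13422 CPM; Kv3 genes make up most of the bar in F16, and Kv1 genes in F24.

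The summed level of the members was lowest in the first BRP block, at 534 to 1016 CPM with a median of 828 CPM. The second block summed to 1630 to 4984 CPM (median 2888), with no overlap, and the F block to 2461 to 13422 CPM (median 4771, or 5664 with the close pair counted once). Without BRP528 and BRP529, which hold markers of both kinds, the second block started at 2019 CPM. TMM factors raised the levels of all 8 F columns, by a median of 1.91 times, and lowered those of all 20 BRP columns. DESeq2 size factors lowered all 20 BRP columns as well as F1 and F2 and raised the other 6 F columns, with a median of 2.23 times over the 8. The factor applied to a column, relative to CPM, had a median of -0.38 and -0.95 on the log2 scale over the 28 columns, so directions between the F and BRP blocks were read under each scaling. The summed medians kept their order under all 3, at 465, 923 and 11767 with DESeq2 size factors.

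The families that made up the sum differed between blocks. Two-pore-domain genes held a median of 33.6% and Kv4 genes 27.7% of the members' level in the first BRP block. The second block was spread out, with 17.5% in silent Kv subunits, 12.9% in Kv4, 12.6% in two-pore-domain genes and 9.60% in the BK and sodium-activated family. In the F block Kv3 genes held 45.3% and Kv1 genes 17.7%. A single gene could carry an F column: Kcnc2 gave 92.8% of the members' level in F16, and Kcna6 65.1% in F24. The leading gene of a second-block column gave 11.3% to 37.3%. Without Kcnc2 the F block summed to 963 to 7027 CPM (median 2952), and it then overlapped both BRP blocks.

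Read by block medians, 40 of the 92 members were highest in the second BRP block, against 21.3% of all genes of the table. The first BRP block had the highest median for 11 members (33.4% of all genes) and the F block for 6 (1.37% of all genes), which were Kcna2, Kcna6, Kcna7, Kcnc1, Kcnc2 and Kcnmb2. For the other 35 no single block was highest (44.0% of all genes). The members of the first BRP block were Kcne1l, Kcnip1, Kcnj13, Kcnj16, Kcnk10, Kcnk13, Kcnk2, Kcnk5, Kcnmb1, Kcnn3 and Kcnt2. Some leading medians lay under the limit that a count of 0 allows. Examples are Kcnj13 at 0.0272 CPM in the first block and Kcnh8 at 0.0243 CPM in the second. In the F block Kcna7 had 0.0575 CPM. Kcnmb2, at 0.575 CPM with F11 and F12 counted once, lay within the range of that limit over F columns. With at least 10 counts in at least 3 columns, 9, 39 and 4 members were highest in the first, second and F blocks. The share of all genes under this filter was not computed. After thinning, Kcnip1, Kcnj13, Kcnk5 and Kcnt2 lost their place in the first block, and the second block led for 31 members. Kcna7 lost its place in the F block after thinning and with F11 and F12 counted once. Kcnk3 was highest in the second block by CPM and in the F block under both other scalings, and Kcnd3 passed from the second to the first block under DESeq2 size factors.

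The F range lay wholly above the BRP range for 0 members and for 0 genes of the table (0%), and wholly below it for Kcnk1, against 4.44% of all genes. Between the BRP blocks the second lay wholly above the first for 9 members, against 1.76% of all genes. Among these were Kcnc1, Kcnd2, Kcnh1, Kcnh3, Kcnj2, Kcnma1 and Kcnv1. For Kcnh1, Kcnj2 and Kcnv1 the separation rested on 2, 1 and 2 counts in BRP528, fewer than the 3 that a count of 0 allows. The other 6 had 70 counts or more in every column of the second block. It lay wholly below for Kcne1l alone among members, against 2.24% of all genes. The 9 became 13 without BRP528 and BRP529, stayed 9 with TMM factors and were 6 with DESeq2 size factors.

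**Figure D3:**
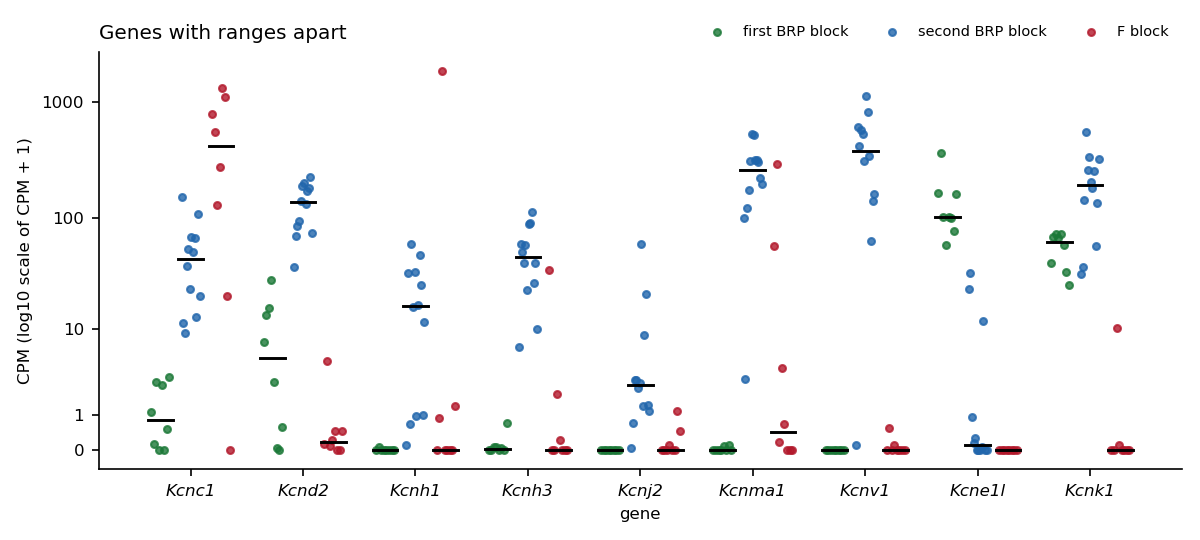
Exonic CPM (y axis, log10 scale of CPM + 1) in every column for 7 of the 9 members whose second BRP range lay wholly above the first, for Kcne1l, whose second range lay below it, and for Kcnk1, whose F range lay below all BRP columns. Points are columns, coloured by block, and black lines are block medians.

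The Kv3 level of the F block was carried by Kcnc1 and Kcnc2. Kcnc2 (Kv3.2; chr10:112271121-112467024, plus strand) had a count in 8 of 8 F columns, at 1480.1 CPM in F1, 1708 in F2, 3031 in F6, 50.5 in F7, 933 in F11, 847 in F12, 12459 in F16 and 11.8 in F24. The exact 95% binomial interval of 8 of 8 is 63.1% to 100%. The median was 1206 CPM, or 1480.1 with the close pair counted once. The other 6 F columns thus held 847 CPM or more, whereas F7 and F24 lay below the highest BRP column. In the first BRP block Kcnc2 had a median of 0 and 3 of 8 columns with a count, the highest being 10.9 CPM in BRP572. In the second its median was 0.102 CPM, and BRP528, BRP534 and BRP539 reached 77.1, 48.4 and 35.8 CPM. Of those, BRP528 is 1 of the 2 columns with mixed markers.

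Kcnc1 (Kv3.1; chr7:46396497-46438704, plus strand) differed in each block, at 0 to 3.31 CPM in the first (median 0.813), 9.17 to 151 CPM in the second (median 43.8) and 0 to 1324 CPM in the F block (median 416, or 276 with the pair counted once). The F columns held 799.6 CPM in F1, 557 in F2, 131 in F6, 276 in F7, 1324 in F11, 1119 in F12, 20.3 in F16 and 0 in F24. The 2 BRP ranges did not overlap, whereas F6, F16 and F24 fell within the BRP range. Columns led by one Kv3 gene were not always led by the other: F16 held the highest Kcnc2 level and the second lowest Kcnc1 level of the F block, and F7 held 276 CPM of Kcnc1 with 50.5 CPM of Kcnc2. Both genes had their highest median in the F block under CPM, TMM factors and DESeq2 size factors.

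Kcnc4 (Kv3.4, an inactivating Kv3 subunit) was low throughout. It was counted in 7 of 12 columns of the second block, up to 22.3 CPM in BRP538, in 0 of 8 of the first and in 1 of 8 F columns. Per kilobase of annotated exon the F medians were 169 CPM for Kcnc2 and 44.0 CPM for Kcnc1, ahead of 7.10 for Kcna6 and 3.97 for Kcna2. With the pair counted once they were 207 CPM for Kcnc2, 29.2 CPM for Kcnc1 and 14.1 CPM for Kcna6.

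**Figure D4:**
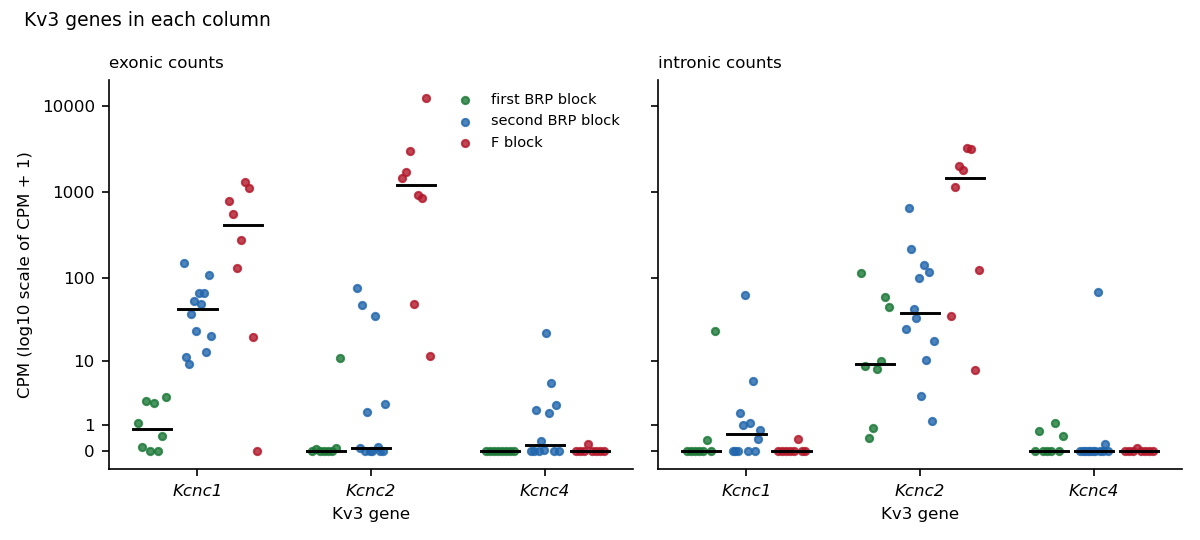
CPM of 3 Kv3 genes from exonic counts (left) and intronic counts (right) in every column, coloured by block, on a log10 scale of CPM + 1; black lines are block medians. Exonic Kcnc1 and Kcnc2 and intronic Kcnc2 are highest in the F block, while intronic Kcnc1 is near 0 in all blocks.

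Introns gave a different picture for these 2 genes. Intronic Kcnc2, as CPM of a column's intronic total, was found in all 28 columns, with medians of 9.37 CPM in the first BRP block, 38.8 in the second and 1479.5 in the F block. The F columns did not follow the order of their exons: F16, with the highest exonic level, had 7.75 intronic CPM, and F7, with 50.5 exonic CPM, had 1801. F11 and F12 were alike here too, at 3282 and 3212 CPM. Kcnc1 had almost no intronic counts, 541 over all columns against 40806 exonic ones, of which 75.6% lay in BRP537. Its annotated introns sum to 32.8 kb against 189 kb for Kcnc2.

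Kv1 subunits form low-threshold delayed rectifiers of axons. Kcna6 (Kv1.6) reached 4452 CPM in F24, 2812 in F6, 997 in F2 and 83.9 in F1, and lay at 0 to 0.456 CPM in the other 4 F columns. The F block was thus divided, with a median of 42.2 CPM, or 83.9 CPM with the pair counted once. In the first BRP block Kcna6 ran from 0 to 169 CPM (median 14.6), and in the second it was 0 in 8 of 12 columns with a highest value of 42.1 CPM. Kcna2 (Kv1.2) had a count in every F column, from 0.473 CPM in F24 to 963 CPM in F12 and 602 in F11. Its F median of 47.3 CPM rested on that pair and was 4.03 CPM with the pair counted once, close to 3.55 CPM in the first BRP block and 2.70 CPM in the second. Kcna1 (Kv1.1) and Kcna4 (Kv1.4) had their highest medians in the second block, 31.3 and 64.5 CPM. The highest Kcna1 column of all was BRP528 at 607 CPM, and among F columns F24 had both, at 339 and 112 CPM.

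Kv2 channels carry much of the delayed rectifier of neuronal cell bodies. Kcnb2 (Kv2.2) was at 0 in the exons of all 8 columns of the first block, at a median of 8.50 CPM in the second and at 0.345 CPM or less in the F block. Silent Kv subunits join Kv2 pores and form no channel alone. Among them Kcnv1 (Kv8.1) had the highest median of any member in the second block, 379.7 CPM, without scaling by length. Per kilobase of exon Kcnk1 led that block. Kcnv1 ranged from 0.0996 CPM in BRP528 to 1131 CPM in BRP538. It was at 0 in the first block and at 0.542 CPM or less in the F block. Kcns2 was counted in 11 of 12 columns of the second block, at a median of 56.3 CPM, and stayed at 0.92 CPM or less in every other column. Kcns3 went another way, with 862 CPM in F6 and 714 CPM in F7 and a median of 0 in all 3 blocks.

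Kv4 channels carry the transient A-type current of dendrites. Kcnd3 (Kv4.3) was a gene of both BRP blocks, at 50.3 to 357 CPM in the first (median 195) and 21.7 to 602 CPM in the second (median 265). The first range lay within the second. Only F24 and F1 among the F columns had more than 1 CPM of it, at 462 and 72.4 CPM. Kcnd2 (Kv4.2) lay at 0 to 28.2 CPM in the first block and at 37.4 to 229 CPM in the second, and at 4.88 CPM or less in the F block. Kv7 subunits carry the M-current, which damps repetitive firing. Kcnq5 and Kcnq3 had medians of 3.87 and 11.2 CPM in the second block.

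**Figure D5:**
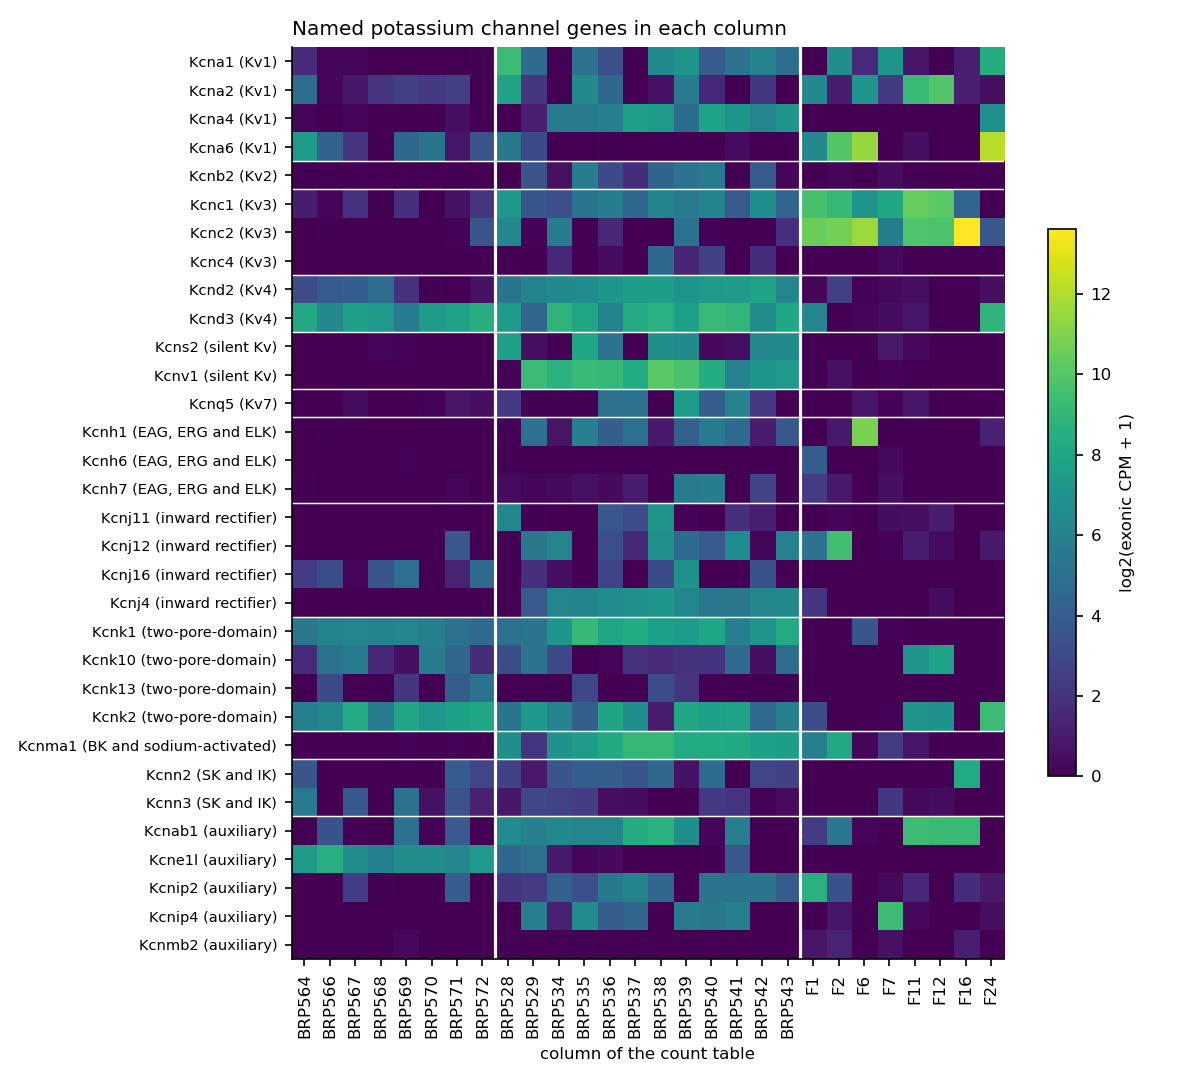
Exonic level, log2(CPM + 1), of 32 named potassium channel genes (rows, by family) in each of the 28 columns (x axis), with white lines between the first BRP, second BRP and F blocks. The second block is filled in most rows, whereas each F column has a few very high genes that differ between columns; F11 and F12 are alike.

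The EAG, ERG and ELK channels are voltage-gated relatives of the Kv group. Kcnh1 (EAG1) had a median of 16.6 CPM in the second block and was counted in 12 of 12 columns, against 1 of 8 in the first. In the F block it was at 0 in 5 columns, at 0.903 and 1.42 CPM in F2 and F24, and at 1874 CPM in F6, the highest value of all columns. Kcnh3, an ELK channel of forebrain neurons, ran from 6.82 to 111 CPM in the second block, with 35.2 CPM in F1 as the highest F value. Among inward rectifiers Kcnj4 (Kir2.3) was counted in 11 of 12 columns of the second block at a median of 72.2 CPM, in 0 of the first and in 2 F columns at 3.24 CPM or less. Kcnj12 (Kir2.2) had a median of 19.4 CPM in the second block and its highest value, 726 CPM, in F2. Kcnj16 (Kir5.1), which pairs with the astrocyte channel encoded by Kcnj10, was counted in 7 of 8 columns of the first block at a median of 6.56 CPM and in no F column. Its highest column was BRP539 of the second block, at 123 CPM. Kcnj11 (Kir6.2), the pore of the KATP channel, reached 131 CPM in BRP538 with a median of 0.698 CPM in the second block, and was at 0 in the first.

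Two-pore-domain channels give a background leak. Kcnk1 (TWIK-1) was found in all 20 BRP columns, at 25.8 to 72.5 CPM in the first block (median 62.2) and 31.9 to 559 CPM in the second (median 194), so the BRP ranges overlapped at the low end of the second. In the F block 6 of 8 columns were at 0, and F6 was highest at 10.4 CPM. With DESeq2 size factors its F range no longer lay wholly below the BRP range. Kcnk2 (TREK-1) was highest in the first block, at 49.4 to 314 CPM (median 182) against a median of 83.5 CPM in the second, with overlap. Its F values were 634 CPM in F24, 129 and 125 CPM in F11 and F12, and 8.36 CPM or less elsewhere, and the F median of 4.24 CPM became 0.115 CPM with the pair counted once. Kcnk10 (TREK-2) was counted in all 8 columns of the first block at a median of 11.9 CPM. Only F11 and F12 had it in the F block, at 135 and 239.7 CPM. Kcnk13 (THIK-1) was low, with 33.6 CPM in BRP572 as its highest value and a median of 1.70 CPM in the first block.

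Per kilobase of exon the first BRP block was led by Kcne1l at a median of 66.0 CPM, Kcnk2 at 36.7, Kcnk1 at 27.8 and Kcnd3 at 20.4. The second was led by Kcnk1 at 86.7 CPM, Kcnv1 at 82.8, Kcnj4 at 33.6, Kcnd3 at 27.6 and Kcnd2 at 26.6. Kcnk1 and Kcnd3 were thus among the leading genes of both BRP blocks.

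BK channels open with calcium and depolarization together. Kcnma1, their pore, was counted in 12 of 12 columns of the second block, from 3.13 CPM in BRP529 to 534 CPM in BRP537 (median 262), and stayed at 0.102 CPM or less in the first. In the F block it lay at 293 CPM in F2, 56.8 CPM in F1, 4.14 CPM in F7 and 0.683 CPM or less elsewhere. Kcnmb4, the neuronal BK beta subunit, had a median of 7.59 CPM in the first block and 42.5 CPM in the second and reached 1145 CPM in F6, where Kcnma1 was at 0.166 CPM. Kcnn2 and Kcnn3 encode SK channels, which open with calcium alone. Kcnn2 had a median of 8.48 CPM in the second block and a lone F value of 317 CPM in F16. Kcnn3 was highest in the first block at a median of 5.67 CPM, with 46.2 CPM as its highest value.

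Kcnab1, a cytoplasmic Kv1 beta subunit, had the highest mean CPM over the 28 columns of the auxiliary subunits, while Kcne1l had the highest median in the first BRP block. Kcnab1 had a median of 74.4 CPM in the second block, from 0 to 409 CPM, and 0.0505 CPM in the first. The F columns fell apart: F11, F12 and F16 held 664, 567 and 564 CPM, F2 42.5 CPM, and the other 4 columns 4.11 CPM or less, so that the F median of 23.3 CPM became 4.11 CPM with the pair counted once. Kcne1l was found in 8 of 8 columns of the first block, at 57.9 to 369 CPM (median 102). In the second block 7 of 12 columns had a count, the highest being 32.9 CPM, and without BRP528 and BRP529 the median was 0.0286 CPM. No F column had a count of Kcne1l, and the exact 95% interval of 0 of 8 reaches 36.9%. Kcnip2 and Kcnip4 are calcium-binding partners of Kv4. They had medians of 19.4 and 18.3 CPM in the second block, and each had 1 high F column, Kcnip2 at 395 CPM in F1 and Kcnip4 at 633 CPM in F7.

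Among members, a median of 0 beside a high value in some column was seen in the F block alone. There 8 members (8.70%) had a median of 0 with at least 100 CPM in some column, namely Kcna4, Kcnab3, Kcnh1, Kcnk10, Kcnmb4, Kcnn2, Kcns3 and Kcnt1. Kcnk10 and Kcns3 reached this in 2 F columns each, F11 with F12 and F6 with F7. In the BRP blocks 0 members met this. All genes showed the same contrast, with 5.48% in the F block against 0.0213% and 0.367% in the first and second BRP blocks. F6 held 3 of the 8 (Kcnh1, Kcnmb4 and Kcns3) and F2 held Kcnab3 at 218 CPM and Kcnt1, a sodium-activated channel, at 279 CPM. F24 stood out in several families, with Kcna6, Kcnk2, Kcnd3 and Kcna1 between 339 and 4452 CPM, Kcnc2 at 11.8 CPM and no count of Kcnc1.

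Partners of these channels that carry other names were taken as a list of 10 genes. Their summed level was 1.01 to 13.1 CPM in the first BRP block, 86.1 to 277 CPM in the second and 1.19 to 747 CPM in the F block. Dpp6 and Dpp10, which traffic Kv4 to the surface, had medians of 49.1 and 27.6 CPM in the second block against 0.139 and 0 CPM in the first, with up to 308 and 736 CPM in an F column. Lgi1, a secreted protein that acts on Kv1, was counted in 12 of 12 columns of the second block at a median of 51.8 CPM and in 1 of 8 of the first. Amigo1, a partner of Kv2 channels, had medians of 0.736, 8.17 and 0 CPM in the 3 blocks. The sulfonylurea receptors Abcc8 and Abcc9 stayed under 35 CPM, with medians of 0.466 CPM or less. Of the BK gamma subunits Lrrc26, Lrrc38, Lrrc52 and Lrrc55 none had a median above 0.0224 CPM, and the highest value was 51.1 CPM, for Lrrc55 in the second block.

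Intronic counts were a large part of the members' signal. With every column weighted equally, the intronic share of exonic plus intronic counts had a median of 42.5% over the 88 members in both tables, against 18.6% over all 19540 genes of both tables with a count. Introns gave more than 50% for 41 of the 88, against 35.1% of all genes. The members also had longer introns, with a median of 25.7 kb against 12.6 kb over all annotated genes. Kcnip4, whose introns sum to 1132 kb, had the most intronic counts of the members, 473426, of which 42.7% lay in F7, and an intronic share of 97.8%. Kcnma1, Kcnh7, Kcnd2 and Kcnq5 followed with 258215, 152996, 111373 and 100156 intronic counts. The strand setting of the counting was not given in the sources used here, so reads of antisense genes within an intron cannot be told apart from those of the channel.

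By intronic block medians 20 of the 88 members were highest in the first BRP block (32.3% of all genes), 27 in the second (20.2%) and 12 in the F block (7.93%), with 29 in no single block (39.6%). Kcnd3 changed place, with intronic medians of 939 CPM in the first block, 142 in the second and 2.26 in the F block. Kcnh7, an ERG-type channel, was the 1 member whose intronic range in the second block, 103 to 4045 CPM, lay wholly above that in the first, 6.19 to 94.6 CPM, against 0.0294% of all genes. Its exonic median in the second block was 0.285 CPM. Kcnma1 in F16 had 14565 intronic CPM and no exonic count, and Kcnb2 had an intronic median of 247 CPM in the first block with 0 exonic counts there.

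In contrast, 6 members with at least 1000 exonic counts were listed at 0 in introns of every column, against 5.62% of all genes. They were Kcna1, Kcna2, Kcna4, Kcnip2, Kcnj11 and Kcns2. For Kcna1, Kcna2, Kcnj11 and Kcns2 the annotated introns sum to 0.467 to 3.13 kb, and 0 of the 10 nearest genes with introns on the same strand were at 0. For Kcna4 and Kcnip2 10 of 10 such neighbours were at 0 as well. Kcnip2 has 20.7 kb of introns, so its 0 stands within a stretch of the intronic table without counts and was not read as absence of intronic RNA.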

How the data were processed

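For 28 single cells of the mouse brain the authors deposited 2 tables of raw read counts per gene, for exons and for introns, with a column per cell. Per the labels, bcl2fastq 2.17, STAR 2.4.0 and the build mm10 are named in the submitters' processing notes, with no role given. The counting tool, annotation and strand setting were not given in the sources used here. All 28 columns were used, as codes. Counts were divided by each column's exonic or intronic total and multiplied by 1000000 (CPM), and described by value, median and range. Because the labels name no animal or culture and no code, a test between cells was not made. Exon and intron lengths come from GENCODE M21 (GRCm38), which held all 92 members and 98.6% of the genes of the exonic table. Columns were thinned to 800000 exonic counts with a fixed seed. TMM factors were computed with edgeR 4.0.16 and size factors with DESeq2 1.42.0 in R 4.3.3, and all else with Python 3.11.15, numpy 2.4.6 and pandas 2.3.3. The block summaries were tested on simulated data, and the outcome is not given here.

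The members and lists were chosen with earlier results of these data known. Named genes were the Kv3 genes, the highest member of each family, the 10 with most exonic and the 10 with most intronic CPM, the 5 that stood out most in each block, and those at 0 in introns. Kcnab3, Kcnh3, Kcnj2, Kcnk3, Kcnmb4, Kcnq1, Kcnq3, Kcns3, Kcnt1 and members named in lists of calls were added after their values were seen, as were the readings without BRP528 and BRP529 and with F11 and F12 counted once. The values of 3 members are not reported here. Alternatives were other scalings, filters, thinning, introns and leaving out columns.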

Additional observations from a re-analysis of the deposited data

Results flagged for a closer look

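In 10 values compared over the 8 columns of a block (members detected, summed level and the Kv3 genes Kcnc1, Kcnc2 and Kcnc4, in the first BRP block and the F block), 3 had a column whose gap to the next exceeded Dixon's 95% limit. Chance gives about 1 in 20 such groups where values are normally distributed, and values with many columns at 0 meet the limit easily. In the first BRP block BRP572 held 10.9 CPM of Kcnc2 against 0.102 CPM in the next column. In the F block F16 held 12459 CPM of Kcnc2 against 3031 CPM in the next. F16 also had the fewest exonic counts and Csf1r at 2093 CPM, and the part of either in this value was not tested. F7 held 0.23 CPM of Kcnc4 against 0 in all other F columns, a value near the limit that a count of 0 allows in several F columns.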

How the results depend on the processing

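No paired analysis was possible because the column codes carry no replicate number. Beside the values given above, these moved. The median number of members detected per column, 36 over all columns, was 21 after thinning, 59.5 with exonic and intronic counts added and 23.5 in the F columns alone. The median summed level of 2673 CPM was 8931 CPM for introns. With DESeq2 size factors it was 923, a shift within 1 SD of the columns and so not counted as moved. Members highest in the first BRP block numbered 7 after thinning and 20 for introns, and those highest in the F block 12 for introns. With DESeq2 size factors 1 member lay wholly above the BRP range in the F block and 0 lay below it. Intronic medians were 0.581 CPM for Kcnc1 in the second block, and for Kcnc2 9.37 and 38.8 CPM in the 2 BRP blocks, or 11.2 and 52.1 CPM with the 10 genes with most intronic counts left out of the total. The other settings, such as F16 left out or F11 and F12 counted once, moved no count of members by over 1.5 times and no Kcnc1, Kcnc2 or Kcnc4 median by over 1 SD of its columns. That SD is wide where columns differ strongly, so it passes large shifts. The F median of Kcnc2, 1206 CPM, was 2434 with TMM factors and 2201 with DESeq2 size factors. That of Kcnc1, 416 CPM, was 773 and 421. In the second block the Kcnc1 median of 43.8 CPM was 32.5 with TMM factors and 13.5 with DESeq2 size factors.

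Leaving out each column in turn, the F block lay wholly above in 0 and wholly below in 1 member each time. The second BRP block lay above the first in 9 to 11 members and below in 1. Kcnc1 medians ran from 0.51 to 1.117 CPM, 37.5 to 50.05 CPM and 276 to 557 CPM in the 3 blocks, Kcnc2 from 0 to 0, 0.0895 to 0.114 and 933 to 1480.1 CPM, and Kcnc4 from 0 to 0, 0.0374 to 0.315 and 0 to 0 CPM. Low depth limits the F columns most: at 838343 exonic counts, a gene under 3.58 CPM can go uncounted in F16.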

Other observations

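Some members were seen almost only in introns. Kcnmb2, a BK beta subunit, had 30 exonic counts over all columns and 65541 intronic ones, of which 60.6% lay in F7. Its intronic medians were 21.6, 9.91 and 141 CPM in the first BRP, second BRP and F blocks, and the highest column was F24 at 5055 CPM. Kcnh6, an ERG-type channel, had 10825 intronic counts, and 10814 of them lay in F1, at 12998 intronic CPM beside 14.7 exonic CPM. No BRP column was above 0.372 intronic CPM. Kcnq1, a cardiac Kv7 subunit, had 10325 intronic counts and 3 exonic ones. The antisense gene Kcnq1ot1 covers 29.0% of it and had 88889 exonic counts, and without a stated strand setting these genes cannot be told apart. Kcnab1 is likewise covered by an antisense gene over 63.1% of its length, and Kcna6 over 68.0%.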
